A study of Mus musculus with 9 samples.

Results

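The genes described here are 10 receptors and adaptors best known from natural killer cells, measured in mouse CD8+ T cells. They are Klrd1, Klrc1, Klrc2, Klrk1, Klre1, Klrb1c, Klrg1, Ncr1, Fcer1g and Tyrobp, chosen by gene symbol, and all 10 were found among the 20618 genes of the deposited tables. The cells were primary wild-type CD8+ T cells held for 24 h in 1 of 3 media. One medium contained 2 mM inosine with hypoxanthine, one contained 2 mM inosine, and one contained 2 mM glucose. Both inosine media had 0 mM glucose, and the glucose medium had 0 mM inosine. All media shared 10% dialyzed FBS, the labels name 1 batch, and live cells, about 80%, were sorted before sequencing. Age, strain, activation state and the molar dose of hypoxanthine are not given in usable form in the sources used here. Each medium had 3 libraries, 9 in all, and nothing says that they came from separate animals or cultures, so a p-value here reflects library-to-library spread, which may be technical. Levels are FPKM, fragments scaled by gene length and by library size, and may be compared between genes. For Klrk1 and Klrd1, reads recovered from the deposited group means did not keep a fixed proportion to FPKM between libraries. Their FPKM differences between media are therefore less secure.

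Cytotoxic lymphocytes read the surface of other cells through pairs of activating and inhibitory receptors. CD94, encoded by Klrd1, forms a dimer either with NKG2A (Klrc1), whose cytoplasmic motifs recruit phosphatases and inhibit, or with NKG2C (Klrc2), which activates. In mice both dimers bind the non-classical class I molecule Qa-1, encoded by H2-T23. NKG2D (Klrk1) binds stress-induced ligands and signals through DAP10 (Hcst) or, for the short mouse isoform, through DAP12 (Tyrobp). KLRE1 (Klre1) is a lectin-like partner chain without a signalling motif of its own. NK1.1 (Klrb1c), KLRG1 (Klrg1), an inhibitory receptor for cadherins, and NKp46 (Ncr1) mark natural killer cells or subsets of effector cells. The Fc receptor gamma chain (Fcer1g) and DAP12 carry the activation motifs that several of these receptors lack, and antigen-experienced CD8+ T cells are known to take up some of the receptors.

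In the annotation of GRCm38.p6 (mm10), Klrb1c, Klre1, Klrd1, Klrk1, Klrc2 and Klrc1 lie on chromosome 6 between bases 128778485 and 129682852. Klrg1 lies apart on the same chromosome at 122270596-122282833. Fcer1g is on chromosome 1 at 171229572-171234349, and Ncr1 (4337715-4345184) and Tyrobp (30413782-30417582) are on chromosome 7. The 250 bases before an annotated transcription start were available from RefSeq for 7 of the 10 genes, and not for Klrd1, Klrg1 and Tyrobp. They are given here 5′ to 3′ on the strand of the gene, for the genes whose levels the results turn on, so that the chromosome 6 cluster can be set beside Fcer1g. Capitals mark exact matches to the searched letters TGTGGT (the core bound by RUNX factors), TGACG (a cAMP response half-site) and CACGTG (an E-box), each also as its reverse complement.
Klrc1 (chr6:129678974-129679223, minus strand): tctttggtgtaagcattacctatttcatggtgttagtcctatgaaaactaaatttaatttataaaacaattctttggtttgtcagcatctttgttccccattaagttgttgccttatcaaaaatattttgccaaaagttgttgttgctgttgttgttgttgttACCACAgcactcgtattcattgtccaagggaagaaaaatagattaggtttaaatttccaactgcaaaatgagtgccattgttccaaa
Klrc2 (chr6:129660597-129660846, minus strand): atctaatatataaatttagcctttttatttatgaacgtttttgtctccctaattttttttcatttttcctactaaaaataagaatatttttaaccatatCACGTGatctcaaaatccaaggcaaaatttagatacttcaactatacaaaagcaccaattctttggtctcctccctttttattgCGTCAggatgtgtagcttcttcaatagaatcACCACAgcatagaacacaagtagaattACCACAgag
Klrk1 (chr6:129623865-129624114, minus strand): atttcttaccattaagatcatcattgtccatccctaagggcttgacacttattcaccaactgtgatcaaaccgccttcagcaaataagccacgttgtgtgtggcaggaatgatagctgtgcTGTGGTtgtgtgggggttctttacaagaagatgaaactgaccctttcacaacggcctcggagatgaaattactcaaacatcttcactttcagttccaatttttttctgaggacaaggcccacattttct
Klre1 (chr6:129577963-129578212, plus strand): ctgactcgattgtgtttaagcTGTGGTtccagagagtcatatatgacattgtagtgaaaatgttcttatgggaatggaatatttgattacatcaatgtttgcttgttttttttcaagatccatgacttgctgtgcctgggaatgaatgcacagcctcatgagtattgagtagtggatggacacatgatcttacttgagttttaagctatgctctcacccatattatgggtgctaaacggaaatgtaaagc
Fcer1g (chr1:171234350-171234599, minus strand): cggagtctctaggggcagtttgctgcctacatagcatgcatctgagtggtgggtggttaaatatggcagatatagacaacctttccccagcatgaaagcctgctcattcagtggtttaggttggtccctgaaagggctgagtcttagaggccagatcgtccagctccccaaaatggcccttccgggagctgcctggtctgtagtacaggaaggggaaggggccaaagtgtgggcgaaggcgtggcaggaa
The letters TGTGGT, on either strand, occurred in 6 of the 7 member promoters, and in 14.2% of the 27025 mouse promoters of the same length. The promoter without them was that of Fcer1g. In Klrc1 the match began 87 bases before the start, in Klrk1 129 and in Klre1 229, and Klrc2 held 2 matches at 36 and 9 bases. The half-site TGACG and the E-box CACGTG occurred among the members only in Klrc2, against 17.9% and 6.05% of all promoters. The T-box letters AGGTGT (12% of all promoters) and the STAT letters TTCNNNGAA (7.18%) were in none of the 7. These are matches of letters in a fixed window and do not show binding. The windows of Klrc1 and Klre1 lie wholly inside the annotated genes, at 129666015-129682852 and 129559365-129585828. The windows of Klrc2 and Klrk1 lie partly inside, since these genes, on the minus strand, reach to 129660737 and 129623903. In Klrc2 the matches to TGTGGT and TGACG fall in the inside part. For Klrc1, Klre1, Klrc2 and Klrk1 the start used is therefore not the outermost one annotated. The promoters of Klrc2 and of its neighbour Klrc3 shared 94.8% of 210 aligned bases, while those of Klrc1 and Klrc2 shared 39.5% of 200.

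Depth was 33433648 to 42761233 recovered reads in inosine with hypoxanthine, 34218884 to 40527835 in inosine and 29661033 to 48101184 in glucose. The label of CD8+ T cells was met: all 8 measured T and CD8 markers were above 1 FPKM, and their summed level was 1690 to 1739 FPKM with hypoxanthine, 1133 to 1280 FPKM in inosine and 1171 to 1224 FPKM in glucose. Of 11 measured natural killer markers outside the 10 genes, Eomes and Txk, both also T cell genes, exceeded 1 FPKM, and the list summed to 22.2 to 24.3 FPKM with hypoxanthine, 24.5 to 30.7 FPKM in inosine and 26.6 to 31.4 FPKM in glucose. Of these 11, 0 were called higher and 2 lower with hypoxanthine against inosine, and 1 higher and 3 lower against glucose. Of the 8 T and CD8 markers, 6 were called higher and 0 lower in each of these comparisons. Over all genes, 11.7% were called higher and 9.59% lower against inosine, and 10.8% and 9.55% against glucose. Among 13 myeloid markers Cd68 alone exceeded 1 FPKM, while Lyz2 averaged 0.0232 FPKM, Csf1r 0.00148 FPKM and Itgam 0.00117 FPKM. No marker with a row in the tables was at 0 in all 9 libraries. The mitochondrial share of FPKM was 5.84% in replicate 2 with hypoxanthine and 6.5% in inosine replicate 2, against 4.03% to 4.82% in the other libraries. Without those 2 libraries Fcer1g stood at -1.25 in both comparisons with hypoxanthine (limma adjusted p = 0.0354 against inosine and 0.0238 against glucose) and Klrc1 at -0.62 and -0.58 (adjusted p = 0.0218 and 0.0179), on the log2 scale introduced with the comparisons.

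The 10 genes fell into an expressed set of 6 and a set of 4 close to the limit of detection. Averaged over 9 libraries, Klrd1 stood at 120 FPKM, higher than 97.6% of all genes, and Klrk1 at 84.2 FPKM, higher than 96.4%. Klrc1 averaged 31.2 FPKM, Fcer1g 7.39 FPKM, Klrc2 4.76 FPKM and Klre1 2.24 FPKM. Tyrobp (0.135 FPKM), Klrb1c (0.13 FPKM), Klrg1 (0.11 FPKM) and Ncr1 (0.00857 FPKM) were all under 1 FPKM. The transcripts of CD94, NKG2A and NKG2D were therefore abundant while those of NK1.1, KLRG1, NKp46 and DAP12 were scarce. Klrd1 and Klrk1, next to each other in this order, overlapped in their libraries with hypoxanthine and in inosine, but not in glucose. Fcer1g and Klrc2 exchanged places: Fcer1g exceeded Klrc2 in every library of inosine and of glucose, and the libraries of the 2 genes overlapped with hypoxanthine.

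**Figure D1:**
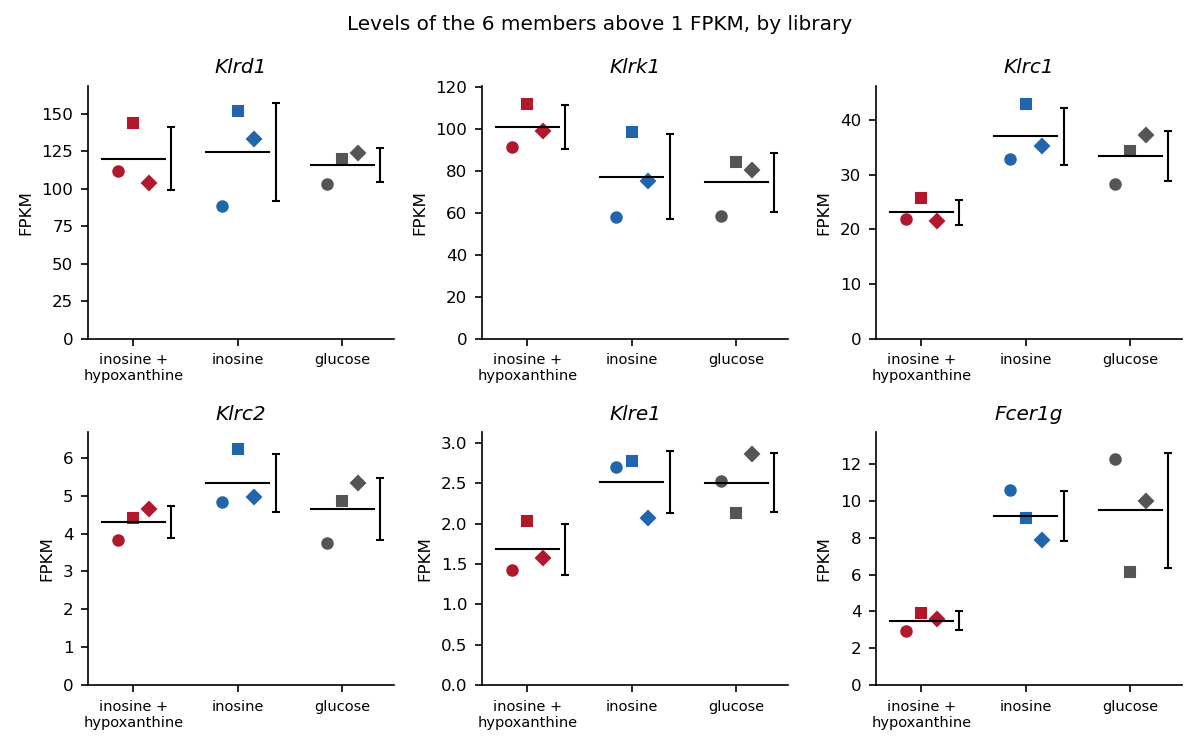
FPKM (linear axis from 0) of the 6 genes above 1 FPKM in each library of inosine with hypoxanthine (red), inosine (blue) and glucose (grey). Circles, squares and diamonds are replicates 1, 2 and 3, lines are means and bars are SD (n = 3). The red points of Klrc1 and Fcer1g lie under all points of the other media, and those of Klrd1 do not.

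Differences between media are given as differences of log2(FPKM + 1) from limma, fitted over all genes, and calls were made where the p-value, adjusted by Benjamini-Hochberg over 20618 genes, was under 0.05. The 2 comparisons with hypoxanthine share the hypoxanthine libraries, so their values are not independent. In inosine with hypoxanthine against inosine, 21.3% of all genes were called, 11.7% higher and 9.59% lower. Of the 10 genes described here, 0 were higher, 2 (Fcer1g and Klrc1) were lower and 8 did not pass. In inosine with hypoxanthine against glucose, where 20.3% of all genes were called (10.8% higher and 9.55% lower), the count was again 0 higher, the same 2 genes lower and 8 not passing. A count of 2 in 10 is thus near the share over all genes. The median difference of the 10 was -0.102 against inosine and -0.034 against glucose, beside 0.002 and 0.001 over all genes.

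Klrd1, the CD94 chain common to both NKG2 dimers, had 112, 144 and 104 FPKM with hypoxanthine, 88.6, 152 and 133 FPKM in inosine, and 103, 120 and 124 FPKM in glucose. The highest and the lowest library were both in inosine, and the 3 media overlapped. The difference between inosine with hypoxanthine and inosine was -0.03 (SE 0.198, 95% interval -0.48 to 0.42, limma adjusted p = 0.959), an interval that still allows a moderate change in either direction. Against glucose it was 0.04 (interval -0.41 to 0.49, limma adjusted p = 0.941). Limma voom on recovered reads gave -0.12 against inosine and -0.03 against glucose (adjusted p = 0.728 and 0.948).

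Klrc1, the inhibitory NKG2A chain, had 22.0, 25.8 and 21.6 FPKM with hypoxanthine, 33.0, 43.0 and 35.3 FPKM in inosine, and 28.4, 34.4 and 37.4 FPKM in glucose. All 3 hypoxanthine libraries lay below all 6 others. The mean was 23.1 ± 2.3 FPKM with hypoxanthine and 37.1 ± 5.25 FPKM in inosine (SD, n = 3 each), which is 1.6-fold lower, and Klrc1 fell by 0.65 on the log2 scale (SE 0.130, limma adjusted p = 0.00792). Against glucose, at 33.4 ± 4.6 FPKM (SD, n = 3), it fell by 0.51 (SE 0.130, interval -0.80 to -0.21, limma adjusted p = 0.0251). This second call is less secure, since it was lost without replicate 1 or 3 of hypoxanthine (adjusted p = 0.082 and 0.0952) and without replicate 2 or 3 of glucose (0.0754 and 0.0936). In bulk RNA, fewer cells with a transcript and less transcript per cell cannot be told apart, here or in the results that follow.

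Klrc2, the activating NKG2C chain, had 3.83, 4.41 and 4.65 FPKM with hypoxanthine, 4.84, 6.23 and 4.97 FPKM in inosine, and 3.74, 4.86 and 5.34 FPKM in glucose. The hypoxanthine libraries were below those of inosine but mixed with those of glucose. The differences of -0.26 against inosine (95% interval -0.55 to 0.03, limma adjusted p = 0.205) and -0.08 against glucose (adjusted p = 0.706) did not pass. Of the 100-base windows in Klrc1 transcripts, 14.6% are found unchanged in Klrc2, so a part of the reads of this pair could be shared or discarded. Klrc3, a further NKG2 family gene outside the 10, averaged 1.62 ± 0.3 FPKM with hypoxanthine, 1.71 ± 0.451 FPKM in inosine and 1.58 ± 0.134 FPKM in glucose (SD, n = 3), with an adjusted p of 0.875 against inosine by limma.

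Klrk1, encoding NKG2D, had 91.4, 112 and 99.0 FPKM with hypoxanthine, 57.8, 98.6 and 75.4 FPKM in inosine, and 58.6, 84.4 and 80.6 FPKM in glucose. The hypoxanthine libraries were all above those of glucose, whereas inosine replicate 2, the library of highest mitochondrial share, lay among them. The mean of 101 ± 10.4 FPKM compared with 77.3 ± 20.4 FPKM in inosine and 74.5 ± 13.9 FPKM in glucose (SD, n = 3). The differences were 0.41 against inosine (95% interval -0.05 to 0.86, limma adjusted p = 0.2) and 0.44 against glucose (interval -0.01 to 0.90, adjusted p = 0.162), and neither passed. Replicate 2 was the highest for Klrk1 in each medium, and without the libraries of high mitochondrial share the differences were 0.52 and 0.37 (limma adjusted p = 0.141 and 0.236). The call of this gene depended on the fit. Limma voom on recovered reads gave 0.53 against inosine (adjusted p = 0.0408) and 0.64 against glucose (adjusted p = 0.0175). It took reads in place of FPKM, so the measure and the tool changed together. Reads and FPKM of Klrk1 did not keep a fixed proportion between libraries. Replicate 1 had 14893 reads at 91.4 FPKM with hypoxanthine, out of 41667317 recovered reads. In glucose, replicate 1 had 5757 reads at 58.6 FPKM, out of 29661033. For its depth, each hypoxanthine library held more Klrk1 reads per FPKM than each glucose library. The reason was not tested. In the authors' deposited table the log2 ratio, written with the other medium over hypoxanthine, was -0.44 for inosine (adjusted p = 0.03) and -0.59 for glucose (adjusted p = 6.36e-06), so higher with hypoxanthine.

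Klre1 had 1.43, 2.04 and 1.58 FPKM with hypoxanthine, 2.7, 2.78 and 2.07 FPKM in inosine, and 2.53, 2.13 and 2.87 FPKM in glucose. The hypoxanthine libraries were the 3 lowest of the 9, by a narrow margin between 2.04 and 2.07 FPKM. The mean was 1.5-fold lower than in either other medium on the FPKM scale, and the log2 difference, held down by the added 1 at such levels, was -0.39 in both comparisons (SE 0.121). The limma adjusted p of 0.0504 and 0.052 fell just short of the threshold, and 5 and 8 of 17 other settings called it, among them a pseudocount of 0.1 (-0.56, adjusted p = 0.0452 and 0.0468). In the authors' deposited table its adjusted p was 0.0852 for inosine and 0.0461 for glucose.

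**Figure D2:**
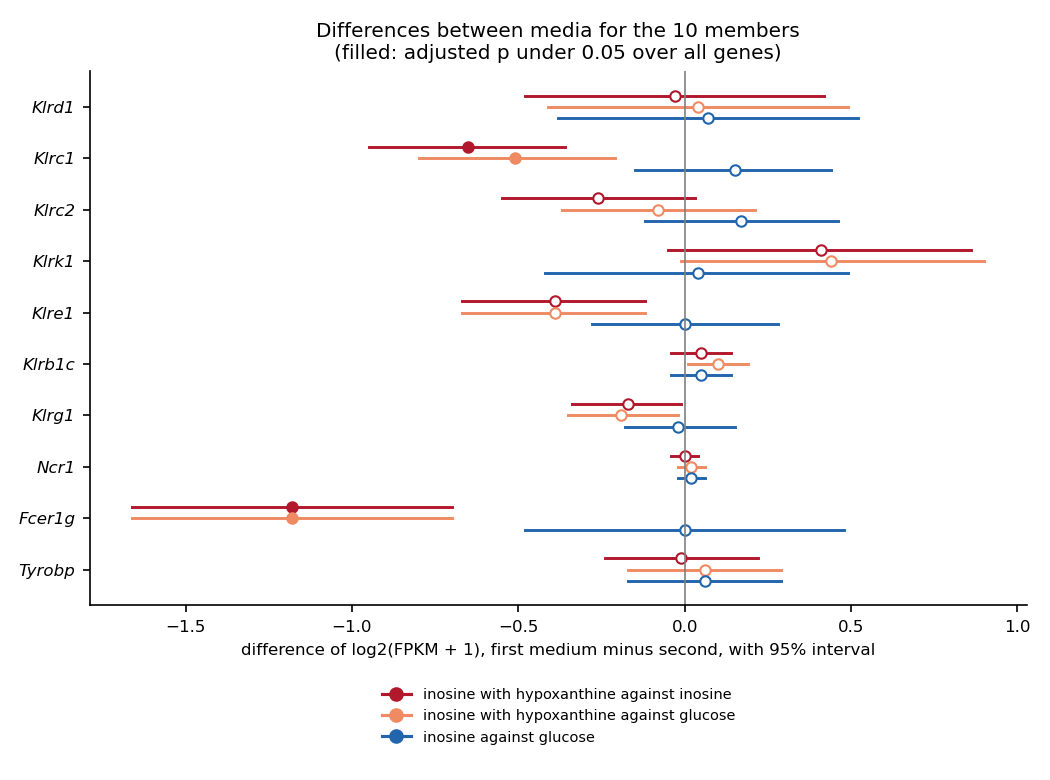
Differences of log2(FPKM + 1) for the 10 genes with 95% intervals from limma, in inosine with hypoxanthine minus inosine (dark red), inosine with hypoxanthine minus glucose (orange) and inosine minus glucose (blue). Filled points passed an adjusted p of 0.05 over all genes: Fcer1g at -1.18 and -1.18, and Klrc1 at -0.65 and -0.51. Narrow intervals of the 4 scarce genes reflect the added 1 FPKM.

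The 4 scarce genes were judged from whole reads, which were recovered from the deposited group means. A count of 0 allows up to 3 reads in a library. Klrb1c, encoding NK1.1, had 27, 27 and 21 reads with hypoxanthine, 25, 14 and 14 reads in inosine, and 13, 10 and 14 reads in glucose. All hypoxanthine libraries were above those of glucose, at 0.169 ± 0.00482 FPKM against 0.0911 ± 0.0246 FPKM (SD, n = 3 each), and the difference did not pass (0.10, limma adjusted p = 0.12). Of the 100-base windows in its transcripts, 10.8% are shared with other genes, nearly all with Gm44511.

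Klrg1 had 0, 5 and 0 reads with hypoxanthine, 12, 7 and 12 reads in inosine, and 15, 2 and 20 reads in glucose. The hypoxanthine libraries were below those of inosine, and glucose replicate 2 lay between the 0 and the 5 reads. The main test did not call the gene (-0.17, limma adjusted p = 0.135 against inosine, and -0.19, adjusted p = 0.105 against glucose). Limma voom on the recovered reads called it in both comparisons, at -3.28 (adjusted p = 0.0306) and -3.19 (adjusted p = 0.0385), values that depend on the treatment of 0 reads. In the authors' deposited table its adjusted p was 0.0823 for inosine and 0.0626 for glucose. Klrg2, a relative of unclear role, was named after its values were seen and also fell (0.228 ± 0.0451 FPKM with hypoxanthine and 0.524 ± 0.0467 FPKM in inosine, SD, n = 3 each, limma adjusted p = 0.00332). Cdh1, encoding the KLRG1 ligand E-cadherin and likewise named afterwards, averaged 0.747 ± 0.0652 FPKM with hypoxanthine and 1.34 ± 0.436 FPKM in inosine (SD, n = 3 each, limma adjusted p = 0.0446).

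Tyrobp, the DAP12 adaptor, had 4, 5 and 6 reads with hypoxanthine, 9, 5 and 0 reads in inosine, and 3, 0 and 7 reads in glucose. Ncr1 had 0, 4 and 0 reads with hypoxanthine, 4, 0 and 0 reads in inosine, and 0 reads in each glucose library. At this depth neither gene showed a detectable difference (limma adjusted p = 0.999 and 0.952 against inosine).

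**Figure D3:**
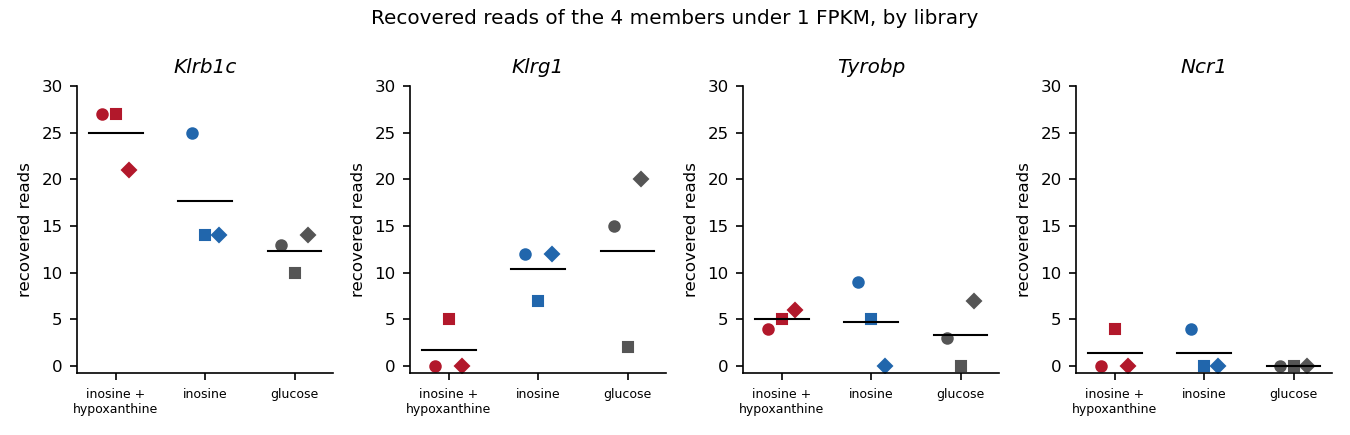
Recovered reads (linear axis) of the 4 genes under 1 FPKM in each library of inosine with hypoxanthine (red), inosine (blue) and glucose (grey), with lines at the means and a different symbol for each replicate number. No library held more than 27 reads of any of them, and Ncr1 was at 0 in 7 of 9 libraries.

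The adaptors differed among themselves. Fcer1g, the Fc receptor gamma chain, had 2.94, 3.94 and 3.61 FPKM with hypoxanthine, 10.6, 9.09 and 7.88 FPKM in inosine, and 12.3, 6.16 and 10.0 FPKM in glucose. All hypoxanthine libraries were below all others, and the glucose libraries were the most scattered. The mean was 3.5 ± 0.514 FPKM with hypoxanthine, 9.19 ± 1.36 FPKM in inosine and 9.48 ± 3.09 FPKM in glucose (SD, n = 3), which is 2.63-fold lower than in inosine and 2.71-fold lower than in glucose. Fcer1g fell by 1.18 on the log2 scale in each comparison (SE 0.211, interval -1.66 to -0.70, limma adjusted p = 0.00476 and 0.00495), further than any of the other 9 genes on this scale. The call against inosine held under all 17 other settings, with adjusted p between 0.000988 and 0.0354, and that against glucose under 16 of 17, being lost with a replicate block in a fit of those media alone (adjusted p = 0.0825).

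Fcer1g is also expressed by natural killer cells, myeloid cells, mast cells and basophils, so their markers were read beside it. Of the 11 natural killer markers, Itga2, an integrin chain, fell to 0.189 ± 0.0155 FPKM with hypoxanthine, against 0.39 ± 0.029 FPKM in inosine and 0.426 ± 0.0539 FPKM in glucose (SD, n = 3; limma adjusted p = 0.00723 and 0.0038). Sh2d1b1, a SLAM family adaptor, fell to 0.268 ± 0.0123 FPKM, against 0.458 ± 0.0826 FPKM in inosine and 0.467 ± 0.0774 FPKM in glucose (adjusted p = 0.0388 and 0.0341). Both thus moved in the direction of Fcer1g and Klrc1, at levels under 1 FPKM. Klri2 went the other way, at 0.621 ± 0.0265 FPKM with hypoxanthine, 0.403 ± 0.146 FPKM in inosine and 0.372 ± 0.0262 FPKM in glucose (SD, n = 3). It was called higher against glucose alone (limma adjusted p = 0.0667 and 0.0445). Klrb1b was called lower against glucose alone (adjusted p = 0.0217), and the rest of the 11 did not pass in either comparison. Summed myeloid markers were 3.49 to 4.44 FPKM with hypoxanthine, 3.1 to 4.82 FPKM in inosine and 3.19 to 4.69 FPKM in glucose, so they overlapped between media, and Cd68, at 3.3 FPKM over all libraries, made up most of the sum. Within that list Cd14 fell to 0.104 ± 0.00389 FPKM with hypoxanthine, against 0.425 ± 0.0888 FPKM in inosine and 0.305 ± 0.091 FPKM in glucose (SD, n = 3; limma adjusted p = 0.00357 and 0.0252). Ly6g, a neutrophil antigen, fell to 0.0231 ± 0.04 FPKM, against 0.188 ± 0.0153 FPKM in inosine (SD, n = 3 each, limma adjusted p = 0.0216), and the other 11 myeloid markers did not pass in either comparison. Of 3 measured mast cell and basophil markers, Kit and Mcpt8 exceeded 1 FPKM and Cpa3 averaged 0.00483 FPKM, and the 3 summed to 1.57 to 2.13 FPKM with hypoxanthine, 4.57 to 5.56 FPKM in inosine and 4.07 to 5.57 FPKM in glucose. Among these Mcpt8, a basophil protease, fell with Fcer1g, at 0.323 ± 0.193 FPKM with hypoxanthine and 2.98 ± 0.861 FPKM in inosine (SD, n = 3 each, limma adjusted p = 0.000308). The part of these markers in the differences of Fcer1g and Klrc1 was not tested.

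Hcst and Cd247, from the list of adaptors and kinases, were singled out after their values were seen. Hcst, the DAP10 adaptor of NKG2D, had 24.2, 31.8 and 25.1 FPKM with hypoxanthine, 13.9, 24.1 and 14.8 FPKM in inosine, and 15.2, 18.3 and 18.4 FPKM in glucose. Every hypoxanthine library was above every other, the closest being 24.2 against 24.1 FPKM in inosine replicate 2, and the difference of 0.63 against inosine (SE 0.195, limma adjusted p = 0.0518) narrowly missed the threshold, as did that of 0.61 against glucose (adjusted p = 0.0582). Cd247, the T cell receptor zeta chain, averaged 32.4 ± 1.23 FPKM with hypoxanthine, 42.2 ± 14.5 FPKM in inosine and 43.3 ± 1.74 FPKM in glucose (SD, n = 3), and did not pass (-0.31 against inosine, limma adjusted p = 0.401). Inosine replicate 1, at 25.5 FPKM, stood below the other 2 inosine libraries, at 49.4 and 51.6 FPKM.

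**Figure D4:**
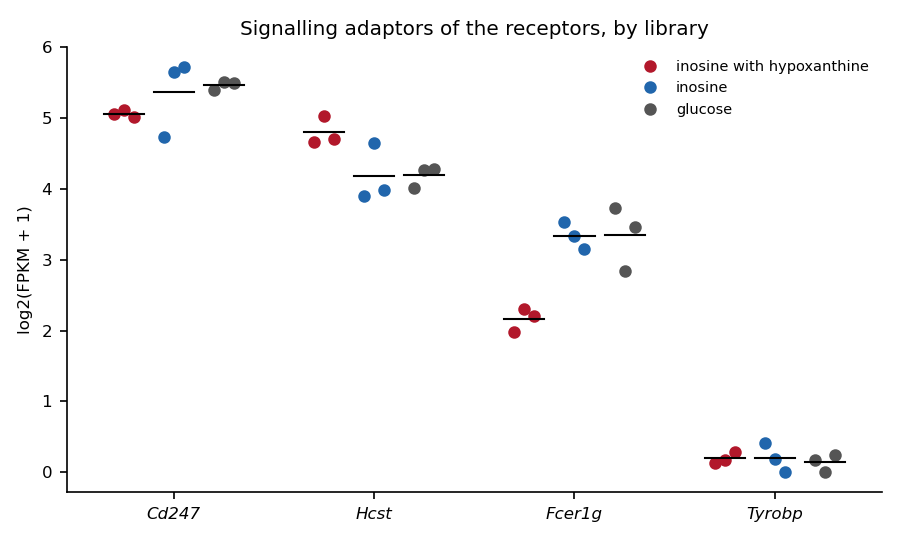
log2(FPKM + 1) of 4 signalling adaptors in each library, with lines at the mean of each medium: inosine with hypoxanthine (red), inosine (blue) and glucose (grey), replicates 1 to 3 from left to right. Fcer1g averaged 3.5, 9.19 and 9.48 FPKM and Hcst 27.0, 17.6 and 17.3 FPKM in that order of media, while Tyrobp was near 0 in all.

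Ratios of FPKM within a library, which do not depend on its scaling, were computed after the levels were seen and are given without a test. Those with Klrk1 or Klrd1 share the uncertainty of the FPKM of these genes. The ratio of Klrk1 to Klrc1 was 4.15, 4.34 and 4.58 with hypoxanthine, 1.75, 2.29 and 2.14 in inosine, and 2.07, 2.45 and 2.15 in glucose. NKG2D transcripts thus exceeded NKG2A transcripts in all libraries, and the 3 ratios with hypoxanthine lay above the 6 others. The ratio of Klrc1 to Klrd1 was 0.195 ± 0.0149 with hypoxanthine, 0.307 ± 0.0574 in inosine and 0.287 ± 0.014 in glucose (SD, n = 3). The ratio of Klrc1 to Klrc2, inhibitory to activating partner, was 5.42 ± 0.664 with hypoxanthine, 6.94 ± 0.148 in inosine and 7.22 ± 0.311 in glucose, so NKG2A transcripts exceeded NKG2C transcripts throughout. The ratio of Hcst to Fcer1g was 7.76 ± 0.705 with hypoxanthine, 1.94 ± 0.672 in inosine and 2.02 ± 0.885 in glucose (SD, n = 3). The ratio of Hcst to its receptor Klrk1 was 0.268 ± 0.0153 with hypoxanthine, 0.227 ± 0.0267 in inosine and 0.235 ± 0.0216 in glucose.

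Inosine against glucose was the one comparison without hypoxanthine. There 0.0097% of all genes were called (2 of 20618, 0.00485% in each direction), and 0 of the 10 genes were. All 10 had an adjusted p of 1 by limma, and 0 had an unadjusted p under 0.05, which 584 of all genes had. Limma voom on recovered reads also called 0 of the 10. No gene of the 10 separated the inosine libraries from the glucose libraries, which 5.05% of all genes did (2.23% higher and 2.83% lower). The 95% intervals were -0.48 to 0.48 for Fcer1g, -0.15 to 0.44 for Klrc1 and -0.42 to 0.49 for Klrk1, so changes of that size were not detectable here. Separation without overlap was seen for 5 of the 10 with hypoxanthine against inosine, all 5 lower (34.4% of all genes, 18.7% higher and 15.6% lower), and for 5 with hypoxanthine against glucose, 2 higher and 3 lower (37.6% of all genes, 19.8% higher and 17.8% lower).

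Around the 10 genes, 7 lists of receptors, signalling genes, ligands and regulators were counted. Beside these counts, 21.3% of all genes were called with hypoxanthine against inosine and 20.3% against glucose. Median log2 differences of the 7 lists ran from -0.09 to 0.08 against inosine, beside 0.002 over all genes. Against glucose they ran from -0.02 to 0.06, beside 0.001. Of 18 measured other lectin-like receptors of the natural killer complex, 3 were higher, 2 were lower and 13 did not pass with hypoxanthine against inosine, and only Klra5 and Klrc3 averaged at least 1 FPKM. Klra5, encoding the receptor Ly49E, fell to 5.26 ± 0.31 FPKM with hypoxanthine, against 9.75 ± 0.069 FPKM in inosine (SD, n = 3 each; limma adjusted p = 0.000143) and 9.08 ± 0.611 FPKM in glucose. Klrb1f, a relative of Klrb1c, rose to 0.123 ± 0.0223 FPKM, against 0.00519 ± 0.00451 FPKM in inosine (SD, n = 3 each, adjusted p = 0.000555), both low levels. The Ly49 genes form a family of close copies, so the value of Klra5 is uncertain.

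Of 22 measured immunoglobulin-like and SLAM family receptors, 6 were higher, 7 lower and 9 did not pass with hypoxanthine against inosine, and 6, 6 and 10 against glucose. Pilrb1, an activating receptor that pairs with DAP12 and belongs to a family of close copies, fell to 1.86 ± 0.374 FPKM, against 13.3 ± 1.36 FPKM in inosine (SD, n = 3 each; limma adjusted p = 1.24e-05). Lair1, an inhibitory collagen receptor, fell to 0.44 ± 0.0597 FPKM, against 1.74 ± 0.149 FPKM in inosine (adjusted p = 5.27e-05). The most abundant members of the list, Cd48, a ligand of 2B4, at 89.0 ± 10.7 FPKM with hypoxanthine and 94.6 ± 9.53 FPKM in inosine, and Lilrb4a, an inhibitory receptor, at 46.1 ± 3.31 FPKM with hypoxanthine and 62.2 ± 13.1 FPKM in inosine, did not pass (adjusted p = 0.611 and 0.0561). Some were named after their values were seen. The activating receptors Cd226 (DNAM-1) and Crtam, the inhibitory receptors Tigit and Cd96, and Slamf6 rose by 0.95 to 1.62 (limma adjusted p from 6.36e-05 to 0.00781). Cd244a, encoding 2B4, and Cd160, likewise named afterwards, fell by 0.94 and 0.38 (limma adjusted p = 0.000691 and 0.0319). Cd226 reached 15.7 FPKM with hypoxanthine against 6.42 FPKM in inosine, and Cd244a stood at 0.737 FPKM with hypoxanthine against 2.34 FPKM in inosine. Activating and inhibitory receptors were found both among those that rose and among those that fell.

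Of 24 adaptors and kinases, 9 were higher, 4 lower and 11 did not pass with hypoxanthine against inosine, and 7, 5 and 12 against glucose. The T cell receptor chains Cd3e (164 ± 12.3 FPKM with hypoxanthine and 82.8 ± 3.55 FPKM in inosine, SD, n = 3 each, limma adjusted p = 0.00019) and Cd3g (359 ± 19.6 FPKM with hypoxanthine and 204 ± 39.0 FPKM in inosine, adjusted p = 0.00293) rose. Lat2, an adaptor also used in mast and natural killer cells, fell to 5.53 ± 0.0728 FPKM, against 14.8 ± 1.91 FPKM in inosine (adjusted p = 0.000647), and the kinase Lck fell by 0.26 (adjusted p = 0.0386). Named after their values were seen, the kinase Zap70 rose by 0.50 (adjusted p = 0.0117) and its relative Syk, which gamma chain and DAP12 also engage, averaged 0.0062 FPKM with hypoxanthine and 0.0187 FPKM in inosine. Of 7 phosphatases and inhibitory adaptors that act below receptors such as NKG2A, 3 were higher, 2 lower and 2 did not pass. Ptpn6, encoding SHP-1, rose to 163 ± 5.82 FPKM, against 109 ± 4.97 FPKM in inosine (adjusted p = 0.000598), while Dok2, a negative regulator, fell to 45.6 ± 0.682 FPKM, against 87.5 ± 2.27 FPKM in inosine (adjusted p = 2.19e-05). Inpp5d, encoding SHIP1 and named afterwards, fell by 0.60 (adjusted p = 0.00636).

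Of 17 measured ligands of these receptors, 5 were higher, 2 lower and 10 did not pass in both comparisons with hypoxanthine. H2-T23, whose product Qa-1 presents peptides to the CD94 dimers, had 230, 200 and 219 FPKM with hypoxanthine, 101, 107 and 110 FPKM in inosine, and 105, 115 and 106 FPKM in glucose. The hypoxanthine libraries were far above the other 6, and H2-T23 rose by 1.02 against inosine (SE 0.074, limma adjusted p = 6.69e-05), while Klrc1, the inhibitory receptor chain for it, fell in the same libraries. H2-Q10, a class I gene with close copies, fell to 0.681 ± 0.163 FPKM, against 4.81 ± 1.59 FPKM in inosine (SD, n = 3 each, adjusted p = 0.000889). B2m, the light chain of class I molecules, at 1276 ± 136 FPKM with hypoxanthine and 1061 ± 245 FPKM in inosine, and H2-K1, at 554 ± 31.9 FPKM with hypoxanthine and 456 ± 29.7 FPKM in inosine, did not pass against inosine (adjusted p = 0.277 and 0.0707). Named after their values were seen, Clec2d and Clec2i, ligands of other receptors of the NK1.1 family, rose by 0.95 and 0.53 (adjusted p = 0.000962 and 0.00647). The NKG2D ligand Ulbp1, likewise named afterwards, averaged 12.8 ± 0.499 FPKM with hypoxanthine and 12.9 ± 1.29 FPKM in inosine (SD, n = 3 each, adjusted p = 1).

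Of 25 measured transcription factors with roles in natural killer or effector lymphocytes, 11 were higher, 6 lower and 8 did not pass against inosine, and 9, 6 and 10 against glucose. Id2, an inhibitor of E proteins needed for natural killer cells, fell to 79.4 ± 1.2 FPKM, against 157 ± 2.57 FPKM in inosine and 158 ± 3.91 FPKM in glucose (SD, n = 3; limma adjusted p = 1.97e-05 against inosine). Zbtb32, a zinc finger repressor, fell to 92.5 ± 4.48 FPKM, against 184 ± 20.9 FPKM in inosine (adjusted p = 0.000236), and Bach2, which restrains effector differentiation, rose to 8.31 ± 0.65 FPKM, against 2.23 ± 0.419 FPKM in inosine (adjusted p = 4.14e-05). Named after their values were seen, Runx3 averaged 21.6 ± 2.33 FPKM with hypoxanthine and 22.4 ± 2.65 FPKM in inosine (adjusted p = 0.797) and Eomes 9.24 ± 0.91 FPKM with hypoxanthine and 10.7 ± 1.19 FPKM in inosine (adjusted p = 0.212), while Tbx21, encoding T-bet, rose by 0.43 against inosine (adjusted p = 0.0247) and not detectably against glucose (0.31, adjusted p = 0.0835).

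Of 12 genes for receptors of interleukin 2, 15, 12 and related cytokines, 5 were higher, 3 lower and 4 did not pass with hypoxanthine against inosine, and 4, 3 and 5 against glucose. Il2rb, the chain shared by the receptors of interleukin 2 and 15, fell to 215 ± 16.3 FPKM, against 332 ± 50.5 FPKM in inosine (SD, n = 3 each, limma adjusted p = 0.00535). Il2rg, the common gamma chain, rose to 252 ± 5.44 FPKM, against 183 ± 23.5 FPKM in inosine (adjusted p = 0.0072). Il12rb2, at 87.9 ± 4.66 FPKM with hypoxanthine against 46.9 ± 4.09 FPKM in inosine, and Il21r, at 83.6 ± 8.33 FPKM with hypoxanthine against 41.9 ± 2.67 FPKM in inosine, rose as well (adjusted p = 0.000175 and 0.000219). In inosine against glucose, 0 genes of the 7 lists were called.

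**Figure D5:**
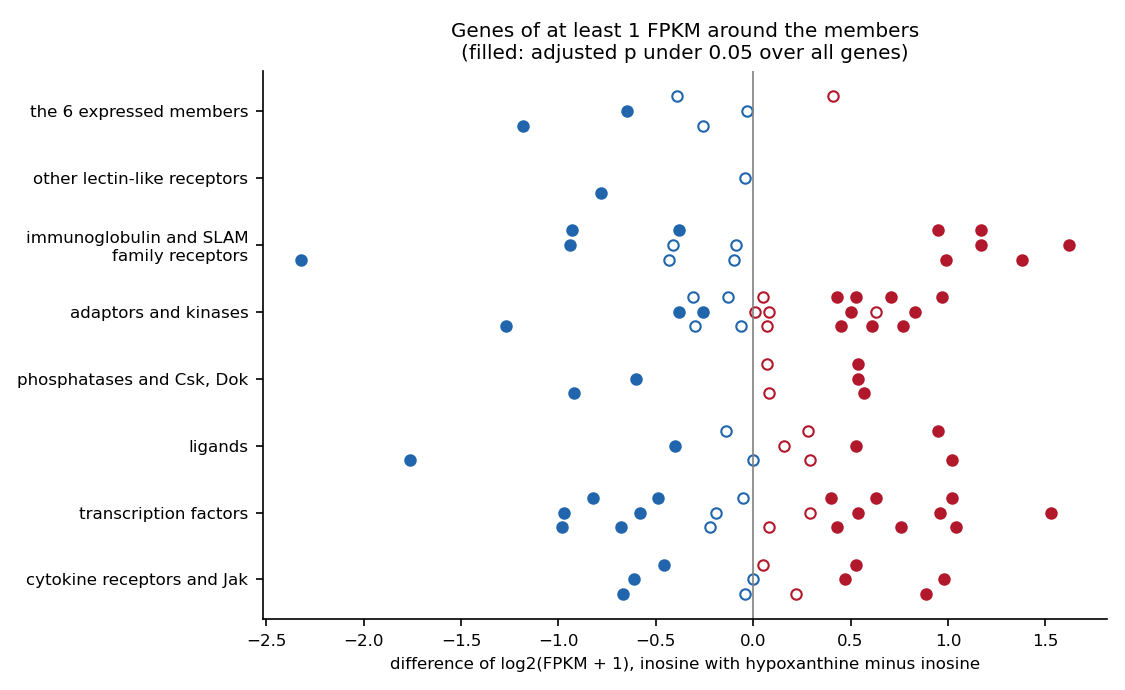
Differences of log2(FPKM + 1) between inosine with hypoxanthine and inosine for the 6 expressed genes and for the genes of at least 1 FPKM on each of 7 lists, 1 point a gene, blue below 0 and red above. Filled points passed an adjusted p of 0.05 over all genes, and each list holds filled points on both sides except the 6 expressed genes and the other lectin-like receptors.

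Genes of the chromosome 6 cluster were called in both directions. Between Klre1 and Klrc1, in 123488 bases, lie 6 genes of the tables (5 of the 10 genes and Klrc3), all of at least 1 FPKM, and with hypoxanthine 0 were called higher and 1, Klrc1, lower in each comparison. Between Klrb1c and Klre1, in 807344 bases, lie 24 genes of the tables with those 2 included. Of these 8 were called higher and 4 lower against inosine, and 8 and 4 against glucose. Over all genes 11.7% were called higher and 9.59% lower against inosine, and 10.8% and 9.55% against glucose. Some calls were of genes near 0, such as Gm34849, with 0 reads in each hypoxanthine library and 5, 8 and 2 reads in inosine. Genes of at least 1 FPKM in this span were called in both directions. BC035044 fell to 3.04 ± 0.132 FPKM, against 7.6 ± 1.22 FPKM in inosine (SD, n = 3 each, limma adjusted p = 0.00027). The early activation antigen Cd69 rose to 53.9 ± 2.79 FPKM, against 41.4 ± 3.12 FPKM in inosine (adjusted p = 0.0126), and 2310001H17Rik rose by 0.79 (adjusted p = 0.0064). Gabarapl1 stood at 47.7 ± 3.33 FPKM with hypoxanthine and 40.0 ± 3.83 FPKM in inosine (adjusted p = 0.0757).

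As a description, 6943 genes of at least 5 FPKM were ranked by the Pearson correlation of log2(FPKM + 1) with each expressed gene over the 9 libraries, which share 3 media and differ in depth. Closest to Klrc1 were Mrpl50 (r = 0.997), Ccdc47 (0.995) and Rpe (0.994), and closest to Fcer1g were Cyp51 (0.982), Cct2 (0.98) and Msmo1 (0.978). For Klrd1 they were Cnpy2 (0.969), Prdx4 (0.956) and Gins1 (0.947), for Klrk1 Tmem175 (0.986), Gimap4 (0.986) and Cenph (0.983). For Klrc2 they were Odr4 (0.977), Shoc2 (0.948) and Hmmr (0.941), and for Klre1 Mtln (0.97), Tmem60 (0.959) and Vbp1 (0.951). Among the 6 expressed genes, the only ones correlated with each other, Klre1 was most like Fcer1g (r = 0.91) and then Klrc1 (0.83), Klrk1 was most like Klrd1 (0.67), and Klrk1 ran opposite to Fcer1g (-0.74).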

How the data were processed

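RNA of sorted mouse CD8+ T cells was sequenced paired-end on an Illumina instrument, per the labels' protocols, with 3 libraries in each of 3 media and strand not given in the sources used here. Without strand, reads of overlapping antisense genes cannot be told apart. The submitters' processing notes name the mm10 genome, DESeq2 1.38.3, Subread 2.0.1, HISAT2 and featureCounts, with no role given. The authors deposited FPKM per gene and library in 3 tables. A mean signal per gene and medium is deposited too, and its values fit normalized read counts averaged over 3 libraries. The log2 ratios and p-values in the deposited tables are the authors' own, and those with hypoxanthine are written as the other medium over hypoxanthine.

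limma 3.58.1 in R 4.3.3 (trend, robust) was fitted to log2(FPKM + 1) of all 20618 genes and 9 libraries, 1 mean per medium (residual degrees of freedom 6), no filter, and calls at a Benjamini-Hochberg adjusted p under 0.05 over all genes. Adjusted p-values are limma's from this fit unless another source is named. Log2 differences on this scale understate changes of low genes. Whole reads were recovered for 20495 genes (99.4%) by solving the 2 deposited group means of each medium, and served for depth, for the scarce genes and for limma voom. Tests were first run on simulated data. The 10 genes, the 7 pathway lists and the 8 marker lists were chosen with earlier results of these data known. Named from each pathway list were the 2 genes of smallest adjusted p with hypoxanthine against inosine and the 2 of highest mean FPKM, and any others are marked as named afterwards. Promoters are from RefSeq on GRCm38.p6, while transcript windows are from GENCODE mouse transcripts. The 95% intervals are limma's and rest on the spread between libraries, while the floor of 3 reads covers counting error only.

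Whether replicate numbers pair the libraries was not settled, and the main fit did not pair them. Correlations of deviations between libraries of the same number ran from -0.27 to 0.635 over the 9 pairs. Between libraries of different number they ran from -0.554 to 0.388. Against inosine, a replicate block in all 9 libraries changed the SE of Klrk1 from 0.199 to 0.101 and that of Fcer1g from 0.211 to 0.213.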

Additional observations from a re-analysis of the deposited data

How the results depend on the processing

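Of 498 values of single genes under 17 other settings, 425 kept their direction and their side of the threshold, 24 passed only under the other setting, 6 no longer passed and 43 changed sign.  Fcer1g was called in 17 of 17 settings with hypoxanthine against inosine and in 16 of 17 against glucose, and Klrc1 in 17 and 12. The cause was not tested for any change of sign or call.

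Genes called with hypoxanthine against glucose numbered 2110 with a replicate block in a fit of those media alone, against 4192, and 2677 to 4879 with a library left out. The low end was reached without hypoxanthine replicate 3, as was 2757 of 2757 to 4487 against inosine (main count 4382). In inosine against glucose 0 genes were called with a mean of at least 1 FPKM, in a fit of those media alone (with or without the block) and by limma voom, 1 with the block or without the libraries of highest mitochondrial share, and 1 to 7 with a library left out, against 2. Of the 10 genes, limma voom called 4 against inosine and 5 against glucose, where it called 4629 and 4517 genes in all, and the replicate block in a fit of those media alone called 0 against glucose. With a library left out the counts were 2 to 3 against inosine and 1 to 3 against glucose (1 without hypoxanthine replicate 1 or 3 or glucose replicate 3). With the replicate block in all 9 libraries, Klrk1 passed (adjusted p = 0.029 and 0.0218). With it in the fit of hypoxanthine and glucose alone, Fcer1g and Klrc1 did not (adjusted p = 0.0825 and 0.0742).

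Signs changed as follows, in log2 differences, all of genes not called in that comparison. With hypoxanthine against inosine, leaving out a library gave -0.26 to 0.13 for Klrd1, -0.02 to 0.02 for Ncr1 and -0.11 to 0.1 for Tyrobp, and Tyrobp was 0.14 with a pseudocount of 0.1 and 0.78 by limma voom. Against glucose, leaving out a library gave -0.1 to 0.14 for Klrd1, -0.21 to 0.0038 for Klrc2 and -0.01 to 0.11 for Tyrobp, and Klrd1 was -0.03 by limma voom and -0.1 without the libraries of high mitochondrial share. In inosine against glucose, leaving out a library gave -0.09 to 0.3 for Klrd1, -0.15 to 0.23 for Klrk1, -0.08 to 0.1 for Klre1, -0.11 to 0.05 for Klrg1, -0.26 to 0.19 for Fcer1g and -0.04 to 0.16 for Tyrobp. There a pseudocount of 0.1 gave -0.00049 for Klre1, 0.03 for Klrg1 and 0.0008 for Fcer1g, and limma voom gave -0.07 for Klre1 and 0.1 for Klrg1. Without the libraries of high mitochondrial share, Klrd1 was -0.09, Klrk1 -0.15, Klre1 -0.06 and Klrg1 0.02, and median-of-ratios scaling gave 0.01 for Fcer1g.

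The planned quasi-likelihood and negative binomial count tests were not run, because the deposited columns are not counts. The recovered reads were tested by limma voom alone. At 0 to 27 reads a library, differences in Klrb1c, Klrg1, Tyrobp and Ncr1 were limited by depth.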
